A study of Mus musculus with 12 samples.

Results

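The genes described here are markers of endothelial cells, the cells that line blood vessels, followed in ribosome profiling of the embryonic mouse brain and spinal cord. They were chosen from a list of 10 Ensembl gene identifiers, and a gene was analysed where its identifier had a row in the table of filtered raw counts. Of the 10 listed genes, 5 had a row among the 10481 genes of the table: Cdh5 (ENSMUSG00000031871), Cldn5 (ENSMUSG00000041378), Esam (ENSMUSG00000001946), Egfl7 (ENSMUSG00000026921) and Slc2a1 (ENSMUSG00000028645). The other 5, Pecam1 (ENSMUSG00000020717), Kdr (ENSMUSG00000062960), Flt1 (ENSMUSG00000029648), Tie1 (ENSMUSG00000033191) and Tek (ENSMUSG00000006386), were not analysed here. The table had been filtered on low values by the authors, so the 5 genes with a row are those that passed and do not stand for the whole list.

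The libraries came from embryos of the Taiwanese mouse model of spinal muscular atrophy (SMA), a motor neuron disease caused by too little survival motor neuron (SMN) protein, at embryonic day 14.5. SMA embryos were Smn-/- with the human transgene SMN2tg/0 (strain 005058), and control embryos were Smn+/- with the same transgene, so that the controls were not wild type and both genotypes carried SMN2tg/0. There were 4 groups of 3 libraries, labelled as biological triplicates: control brain, SMA brain, control spinal cord and SMA spinal cord. Ribosome profiling sequences the mRNA fragments covered by ribosomes, called footprints. No matched mRNA level was used here, so a footprint level reflects both how much mRNA was present and how heavily it was translated. In whole tissue, fewer endothelial cells and fewer footprints per endothelial cell cannot be told apart.

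Blood vessels enter the neural tube from the plexus that surrounds it, and sprout inward under the control of vascular endothelial growth factor, whose receptors on endothelial cells are products of Kdr and Flt1. Tek and Tie1 encode receptors of the angiopoietin pathway, which steadies new vessels, and Pecam1, Cdh5, Esam and Cldn5 encode proteins of the contacts between endothelial cells. In the central nervous system, Wnt ligands from neural cells lead the vessels to form the blood-brain barrier, with tight junctions and the glucose carrier encoded by Slc2a1.

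Totals per library ran from 4207100 to 9117017 counts for control and from 3683842 to 5406430 for SMA brain, and from 10315064 to 12793955 for control and from 5162190 to 8027322 for SMA spinal cord. Every SMA spinal cord library was shallower than every control spinal cord library. The tissue labels were borne out by regional genes: the transcription factor genes Otx2 and Lhx2 of the anterior brain summed to between 244 and 284 normalized CPM (counts scaled to a common library size) in the brain libraries and to between 9.90 and 79.5 CPM in the spinal cord libraries, and 6 Hox genes of the trunk (Hoxb6, Hoxb9, Hoxc5, Hoxc6, Hoxc8 and Hoxc10) summed to at most 4.46 CPM in brain and at least 331 CPM in spinal cord. Some libraries stood apart. Control spinal cord library 1 held 41.1 CPM of Otx2, against 3.001 and 0.948 CPM in the other control spinal cord libraries. Apob, a gene of liver and yolk sac, reached 911 CPM in SMA spinal cord library 1, 294 CPM in control spinal cord library 3 and 33.6 CPM in SMA brain library 1. For the 5 endothelial genes, and for SMA against control in the vascular and cell type genes, values without a library are given where leaving it out changes a call. The targeted gene, Smn1, was not analysed here, so the genotypes rest on the labels.

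All 5 endothelial genes were detected in every library. On the scale of normalized CPM per kilobase of gene length, which allows levels of different genes to be compared, Slc2a1 was the highest, with a mean of 39.8 ± 1.71 (SD, n = 12 libraries). It was followed by Cldn5 at 16.6 ± 1.59, Esam at 8.33 ± 1.76, Egfl7 at 6.54 ± 1.58 and Cdh5 at 5.73 ± 0.68. The libraries of Esam, Egfl7 and Cdh5 overlapped on this scale, while the lowest library of Slc2a1, at 36.3, lay above the highest library of Cldn5, at 19.3. Of all genes of the table, 79.5% were below Slc2a1 on this scale, 52.7% below Cldn5, 24.9% below Esam, 17.2% below Egfl7 and 14.7% below Cdh5. These shares are among genes that passed the authors' filter on low values, so they rank the 5 too low among all mouse genes. The length is that of all exons joined, untranslated parts included, so a gene with long untranslated ends is placed too low for its coding sequence.

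The spread of each gene over the 12 libraries was small for Slc2a1 and larger for the others. The coefficient of variation of normalized CPM was 4.29% for Slc2a1, and only 18 of 10479 genes with a footprint in any library had a lower one. It was 9.53% for Cldn5, 11.9% for Cdh5, 21.1% for Esam and 24.2% for Egfl7, beside a median of 19.3% over all genes. This measure falls with the depth of a gene, since footprints are counted, and Slc2a1 had from 488 to 1944 counts per library where the other genes had from 55 to 355.

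**Figure D1:**
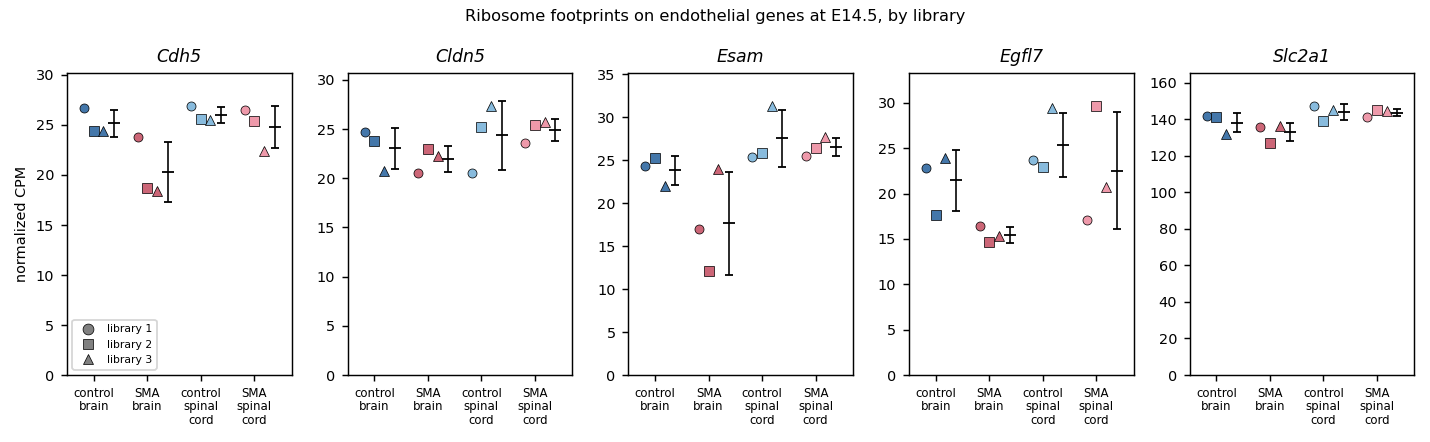
Normalized CPM (vertical axes, each starting at 0) of the 5 endothelial genes in each of the 12 libraries, by group. Symbols are libraries 1 to 3 and the black bars are the group mean and SD (n = 3). Egfl7 and Cdh5 were lower in all SMA brain libraries than in any control brain library, as 7.18% of all genes were. Slc2a1 stayed between 127 and 148 CPM throughout.

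Cdh5 encodes VE-cadherin, the cadherin of endothelial adherens junctions (GRCm38.p6, chr8:104101613-104144504). Its level was 26.7, 24.4 and 24.4 CPM in the control brain libraries and 23.8, 18.7 and 18.4 CPM in the SMA brain libraries. The groups did not overlap, although the highest SMA library came within 1 CPM of the lowest control. All SMA brain libraries lay below all controls for 7.18% of all genes. In spinal cord Cdh5 was 26.9, 25.6 and 25.5 CPM in controls and 26.5, 25.4 and 22.4 CPM in SMA, and these groups overlapped. The group means were 25.2 ± 1.33 (SD, n = 3) in brain and 26.0 ± 0.81 in spinal cord for controls, and 20.3 ± 3.01 and 24.8 ± 2.13 for SMA, so SMA brain was the lowest of the 4.

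Cldn5 encodes claudin 5, the main tight junction strand protein of brain endothelium (chr16:18776847-18778262). Its level was 24.7, 23.7 and 20.7 CPM in control brain, and 20.5, 23.0 and 22.3 CPM in SMA brain. In spinal cord it was 20.5, 25.2 and 27.4 CPM in controls and 23.6, 25.4 and 25.7 CPM in SMA. SMA and control libraries overlapped in both tissues, and the lowest and the highest of all 12 values were both control spinal cord libraries, 1 and 3.

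Esam encodes an adhesion molecule of endothelial tight junctions (chr9:37528089-37538319). Its level was 24.3, 25.2 and 21.96 CPM in control brain and 17.0, 12.1 and 23.98 CPM in SMA brain, so that SMA brain libraries 1 and 2 lay below all controls and library 3 lay among them. The SD of the SMA brain libraries, 5.99 CPM, was above the 2.13 CPM that counting error alone would give. In spinal cord the level was 25.3, 25.9 and 31.4 CPM in controls and 25.5, 26.4 and 27.7 CPM in SMA, with overlapping groups.

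Egfl7 encodes a secreted factor that endothelial cells lay down around sprouting vessels (chr2:26581083-26592682). Its level was 22.9, 17.7 and 23.9 CPM in control brain and 16.4, 14.7 and 15.3 CPM in SMA brain. All SMA libraries lay below all controls, as for 7.18% of all genes. The 3 SMA brain libraries lay close together, with an SD of 0.88 CPM where counting error alone gives 1.96 CPM. In spinal cord Egfl7 was 23.8, 23.0 and 29.5 CPM in controls and 17.1, 29.7 and 20.8 CPM in SMA. SMA spinal cord library 2 held the highest value of all 12 libraries and library 1 the lowest of the spinal cord.

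Slc2a1 encodes GLUT1, the glucose carrier of the blood-brain barrier, which other cells such as red blood cells also make (chr4:119108745-119137330). Its level was 142, 141 and 132 CPM in control brain and 136, 127 and 136 CPM in SMA brain. In spinal cord it was 148, 139 and 145.3 CPM in controls and 141, 144.9 and 144 CPM in SMA. The group means, 138 ± 5.41, 133 ± 5.13, 144 ± 4.42 and 144 ± 1.88 CPM in the order given, spanned a narrow range.

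The SMA effect was tested in each tissue with edgeR's quasi-likelihood test over all 10481 genes. A gene was called by the thresholds stated in the study's methods, which ask for a mean CPM of 0.05 or more, a log2 fold change of 0.5 or more in either direction, and p below 0.05 before adjustment. In brain, none of the 5 endothelial genes passed, where 1.53% of all genes did. All 5 had a log2 fold change below 0, beside 49.1% of all genes. The log2 fold change of Egfl7 was -0.46 (SE 0.17, 95% interval -0.82 to -0.10), with an edgeR adjusted p of 0.902. Egfl7 was thus the 1 member at an unadjusted p below 0.05 in this fit, as 5.05% of all genes were. Over 8 other settings, DESeq2 included, Egfl7 was below it in 7, Esam in 3 and Cdh5 in 1. Their adjusted p was 0.899 or more by edgeR or DESeq2 in each setting. DESeq2 also called none of the 5 by these thresholds, and in it none, Egfl7 included, had an unadjusted p below 0.05. No gene of the table passed an adjusted p below 0.05 in edgeR (0% of all genes).

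The other members had intervals that reached 0 in brain. Esam changed by -0.44 on the log2 scale (SE 0.21, interval -0.90 to 0.01, adjusted p = 0.902 by edgeR), and Cdh5 by -0.30 (SE 0.15, interval -0.63 to 0.03, adjusted p = 0.902). The log2 fold changes of Cldn5, -0.06 (SE 0.14, interval -0.37 to 0.25), and of Slc2a1, -0.04 (SE 0.09, interval -0.24 to 0.16), were near 0. The median over the 5 genes was -0.30, beside 0.00 over all genes, whose 10th and 90th percentiles were -0.25 and 0.23. All 3 SMA libraries lay below all 3 controls for 2 of the 5 genes, Cdh5 and Egfl7, and for 7.18% of all genes.

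Single libraries moved these brain values. Without SMA brain library 3, Esam reached -0.72 (adjusted p = 0.986) and passed the study's thresholds, and without SMA brain library 2 it was -0.21. Egfl7 passed them without control brain library 2, at -0.58, or without SMA brain library 1, at -0.51, and its values ran from -0.58 to -0.39 with each library left out. Its unadjusted p stayed below 0.05 in 4 of these 6 fits, and not without control brain library 3, at -0.39, or SMA brain library 2, at -0.42. Cdh5 was -0.43 with SMA brain library 1 left out and -0.24 with library 2 left out. The sum of Cdh5, Cldn5, Esam and Egfl7 was 93.5 ± 4.37 CPM (SD, n = 3) in control brain, from 91.0 to 98.6, and 75.4 ± 6.11 CPM in SMA brain, from 68.5 to 80.0. In spinal cord the same sum was 103 ± 9.14 CPM in controls and 98.8 ± 7.37 CPM in SMA.

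In spinal cord the SMA and control libraries of every endothelial gene overlapped. None of the 5 passed the study's thresholds, where 0.983% of all genes did, and none had an unadjusted p below 0.05, where 6.99% of all genes did, by edgeR. By DESeq2 none passed the thresholds either, and at an adjusted p below 0.05 edgeR called no gene of the table (0%). The log2 fold change was -0.19 for Egfl7 (SE 0.22, interval -0.71 to 0.33), -0.08 for Cdh5 (SE 0.12, interval -0.36 to 0.19) and -0.06 for Esam (SE 0.12, interval -0.35 to 0.22). For Cldn5 it was 0.02 (SE 0.14, interval -0.31 to 0.35) and for Slc2a1 -0.02 (SE 0.07, interval -0.19 to 0.15). The median was -0.06, beside -0.01 over all genes. No gene had all 3 SMA libraries below all 3 controls among the 5, where 6.29% of all genes had. Egfl7 depended on its 2 outlying SMA libraries, at -0.44 (past an unadjusted p of 0.05, with an adjusted p of 0.908 by edgeR) without SMA spinal cord library 2 and -0.02 without library 1.

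Whether the SMA effect differed between the tissues was tested as the interaction of tissue and genotype in 1 fit over the 12 libraries. None of the 5 genes had an unadjusted p below 0.05, where 2.38% of all genes did, and DESeq2 gave none. The difference of the effects, brain minus spinal cord, was -0.40 for Esam (SE 0.28, interval -0.997 to 0.20), -0.30 for Egfl7 (SE 0.28, interval -0.91 to 0.32) and -0.25 for Cdh5 (SE 0.18, interval -0.63 to 0.13) on the log2 scale, with an edgeR adjusted p of 1 for each. A lower level in SMA brain was therefore not shown to be different from the spinal cord result. Leaving out SMA brain library 3 took Esam to -0.68, and leaving out SMA brain library 1 took Cdh5 to -0.37, both past an unadjusted p of 0.05 and both at an adjusted p of 1 by edgeR. Egfl7 ranged from -0.47 without SMA spinal cord library 1 to -0.02 without SMA spinal cord library 2.

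**Figure D2:**
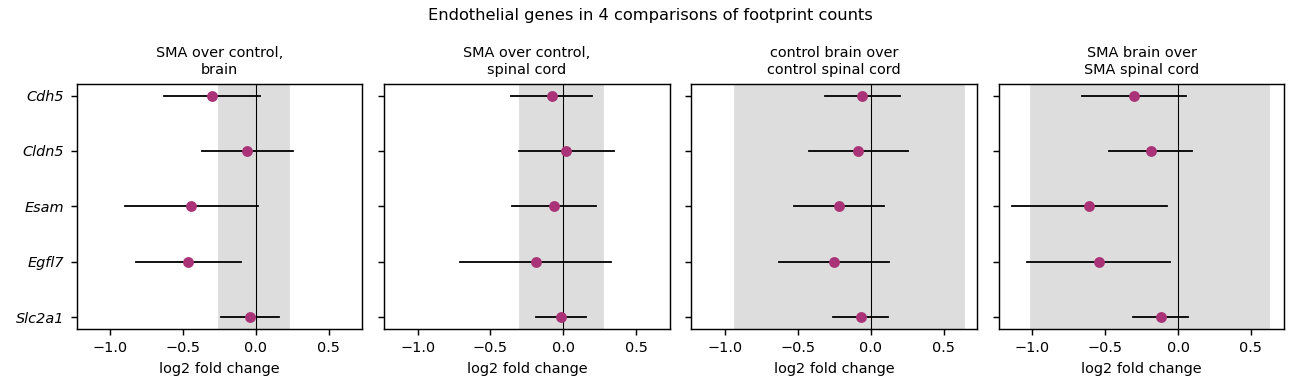
Log2 fold change (horizontal axes) of the 5 endothelial genes in the 4 comparisons, with points for the edgeR estimate and lines for its 95% interval. Grey bands run from the 10th to the 90th percentile of all 10481 genes. In brain, Cdh5, Esam and Egfl7 lay below the band of the SMA comparison, whereas in the tissue comparisons all 5 lay inside the much wider bands.

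Between the tissues, the endothelial genes were compared first in control embryos. None of the 5 passed an adjusted p below 0.05 in brain against spinal cord by edgeR, where 38.4% of all genes did, and DESeq2 also called none. None had an unadjusted p below 0.05, beside 49.1% of all genes. The log2 fold change, brain over spinal cord, was -0.06 for Cdh5 (SE 0.11), -0.08 for Cldn5 (SE 0.15), -0.22 for Esam (SE 0.13), -0.25 for Egfl7 (SE 0.16) and -0.07 for Slc2a1 (SE 0.08). Their edgeR adjusted p ranged from 0.224 to 0.704. The widest interval was that of Egfl7, -0.63 to 0.12, and that of Slc2a1, -0.26 to 0.12, was the narrowest. All genes had a 10th percentile of -0.93 and a 90th percentile of 0.64, so each interval lay inside the range of most genes. Esam was the 1 gene of the 5 with all control brain libraries below all control spinal cord libraries, as 26.7% of all genes had. Its value was -0.11 without control spinal cord library 3, and -0.10 once a trend on counts per base was taken out, and Egfl7 was -0.13 without the same library.

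In SMA embryos the same comparison also gave no call among the 5 by edgeR or by DESeq2, where 36.7% of all genes passed an adjusted p below 0.05. At an unadjusted p below 0.05 there were 2, Esam and Egfl7, beside 47.6% of all genes. Esam had a log2 fold change of -0.61, brain over spinal cord, (SE 0.23, interval -1.14 to -0.08, adjusted p = 0.0711) and Egfl7 -0.55 (SE 0.21, interval -1.04 to -0.05, adjusted p = 0.0787). Cdh5 had -0.30 (SE 0.15, adjusted p = 0.161), Cldn5 -0.19 (SE 0.12, adjusted p = 0.256) and Slc2a1 -0.12 (SE 0.08, adjusted p = 0.277). The SMA brain libraries lay below all SMA spinal cord libraries for 4 of the 5 genes, Cldn5, Esam, Egfl7 and Slc2a1, and for 26% of all genes. This comparison uses other libraries than the control one, but its brain libraries are those of the SMA comparison above.

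In SMA embryos some settings gave a call. Libraries with the same number correlated at 0.114 to 0.345 in their deviations from the group means, and those with different numbers at -0.281 to 0.204, so the ranges overlapped. With the replicate number as a block Esam passed, at -0.64 (SE 0.21, edgeR adjusted p = 0.0398), while Egfl7 did not, at -0.53 (adjusted p = 0.0879). In a fit over all 12 libraries Esam was -0.60 with an adjusted p of 0.0308. Without SMA brain library 3 Esam reached -0.88 (adjusted p = 0.0163), and it was -0.37 without SMA brain library 2. Egfl7 reached -0.71 (adjusted p = 0.0130) without SMA spinal cord library 1, the library with the most Apob, and -0.31 without SMA spinal cord library 2.

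The 5 genes were also compared with each other from library to library. Over the 12 libraries, Pearson's r between their log2 normalized CPM ranged from 0.15 to 0.84 over the 10 pairs, with a median of 0.58 and the highest value for Esam and Slc2a1. With the 4 group means taken out it ranged from -0.37 to 0.64, with a median of 0.12. These are descriptions over libraries that share tissue, genotype and depth. Counting error lowers r, and its part in the spread within groups differed. In SMA brain the SD was 0.88 CPM for Egfl7 where counting error gives 1.96 CPM, and 5.99 against 2.13 CPM for Esam. The low values within groups therefore do not show whether the genes moved together. After the group means were taken out, the gene most like the mean profile of the 5, of 9776 with a mean of at least 20 counts, was ENSMUSG00000022812 (r = 0.91, n = 12 libraries), followed by ENSMUSG00000078153 (r = 0.89), neither of which has a name in the tables used here.

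Other genes of the vessel wall and its signals were followed from 5 lists of 97 genes in all. Only 13 could be followed, because names were at hand for 1999 of the 10481 genes. No gene of the 13 passed the study's thresholds for SMA against control by edgeR, beside 1.53% of all genes in brain and 0.983% in spinal cord. At an unadjusted p below 0.05 there was 1 in brain, Nid1, beside 5.05% of all genes, and 0 in spinal cord, beside 6.99%. DESeq2 gave the same counts. Between tissues, 5 of the 13 passed an adjusted p below 0.05 in control embryos (2 lower in brain, 3 higher), beside 38.4% of all genes, and 8 in SMA embryos (5 lower, 3 higher), beside 36.7%. DESeq2 called 6 and 8. With each library left out, at most 1 of the 13 passed the SMA thresholds in a tissue: in brain Ocln at 0.86 without control library 2 and Nid1 at -0.55 without SMA library 3, and in spinal cord Ocln at 0.68 without control library 1, Tgfb1 at -0.78 without SMA library 1 and Icam2 at -0.79 without SMA library 2.

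Of the vascular ligands, 3 of 15 were followed. Wnt7b, a Wnt ligand of neural cells that acts on the barrier, was higher in brain than in spinal cord by 1.24 on the log2 scale (SE 0.10) in controls and by 1.16 (SE 0.11) in SMA, with edgeR adjusted p of 0.000177 and 0.000186. Efnb2, the ephrin ligand of arterial endothelium that neural cells also make, was higher by 1.01 (SE 0.13) and 0.86 (SE 0.14), and Tgfb1, a growth factor that acts on many cell types, had -0.64 (SE 0.41) and -0.56 (SE 0.41) and did not pass. Of the other endothelial genes, 3 of 34 were followed. Cav1, the coat protein of caveolae, was lower in brain, with a log2 fold change of -1.28 (SE 0.23) in controls and -1.05 (SE 0.24) in SMA. Ramp2, a partner of the adrenomedullin receptor, had -0.29 (SE 0.10, adjusted p = 0.0546) in controls and passed in SMA at -0.52 (SE 0.15, adjusted p = 0.0311). Ramp2 did not pass in SMA without SMA brain library 1 or 3 or without SMA spinal cord library 3 (adjusted p from 0.0959 to 0.103). Icam2, an endothelial adhesion molecule, did not pass in any comparison of 6 libraries, with a standard error from 0.30 to 0.39.

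The transcription factor genes Vezf1 and Hif1a, 2 of 12 listed, did not pass between the tissues, with values from -0.09 to 0.20. Of the barrier list, 3 of 26 were followed. Ocln, which encodes the tight junction protein occludin and is also made by epithelia, was lower in brain, at -1.50 (SE 0.35) in controls and -1.33 (SE 0.21) in SMA, and in controls it did not pass without control brain library 3 (adjusted p = 0.0508). Ctnnb1, which encodes beta-catenin and is used by most cells, was higher by 0.86 (SE 0.11) and 0.92 (SE 0.05), and Slc3a2, part of an amino acid carrier, had -0.12 (SE 0.09) and -0.13 (SE 0.08) and did not pass. Of 10 basement membrane genes, 2 were followed, Nid1 (nidogen) and Sparc, and both passed in SMA embryos, at -0.93 (SE 0.16) and -0.34 (SE 0.08). In controls they had -0.44 (SE 0.16) and -0.13 (SE 0.10), not past the threshold. Without control spinal cord library 1 Nid1 passed in controls (-0.55, adjusted p = 0.0225), and without SMA brain library 1 or 2 Sparc did not pass in SMA (adjusted p = 0.0807 and 0.0623). Slc2a3, the glucose carrier of neurons, stood beside Slc2a1 for comparison. It was lower in brain, at -1.79 (SE 0.15) in controls and -1.68 (SE 0.18) in SMA, where Slc2a1 had -0.07 and -0.12.

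**Figure D3:**
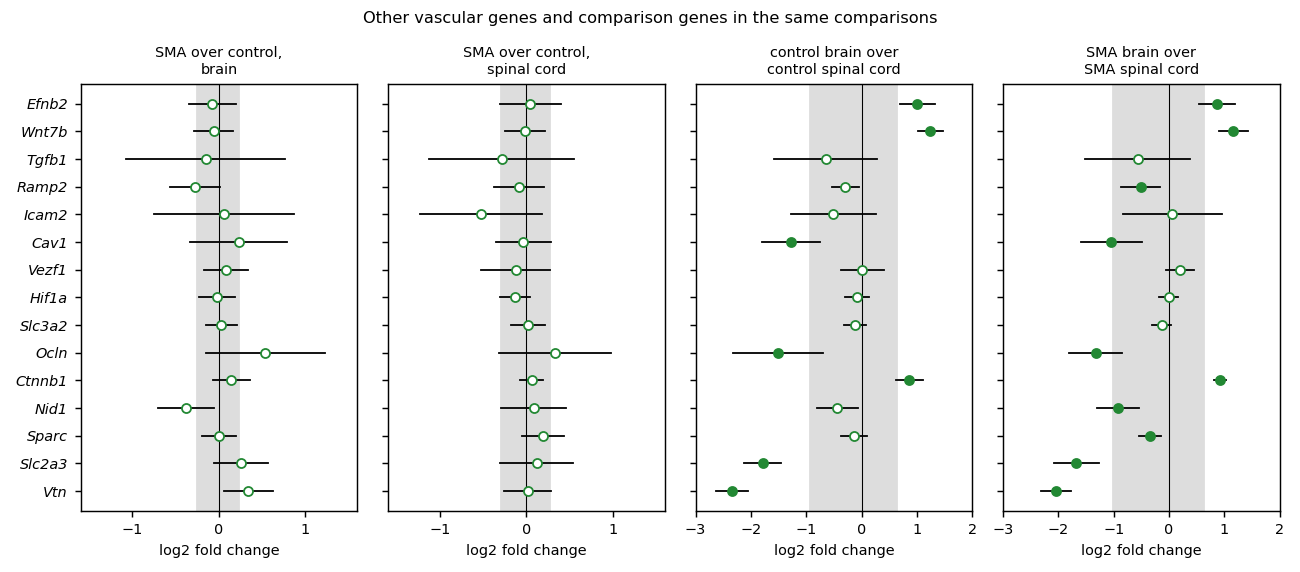
Log2 fold change (horizontal axes, wider range for the tissue comparisons) of 13 other vascular genes, the neuronal glucose carrier gene Slc2a3 and Vtn of the pericyte list, with 95% intervals. Filled points passed the call rule of the comparison and grey bands run from the 10th to the 90th percentile of all genes. No gene shown passed for SMA against control, beside 1.53% of all genes in brain and 0.983% in spinal cord. Efnb2, Wnt7b and Ctnnb1 were higher and Cav1, Ocln, Slc2a3 and Vtn lower in brain than in spinal cord in both genotypes.

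Of the 13 other vascular genes, 6 were lower in SMA brain than in control brain, beside 49.1% of all genes. Nid1 and Ramp2 were among these 6, and neither passed the thresholds. Nid1 was 98.9, 79.0 and 102 CPM in control brain and 56.3, 69.0 and 87.0 CPM in SMA brain, a log2 fold change of -0.38 (SE 0.15, edgeR adjusted p = 0.902) with overlapping groups. Ramp2 was 56.0, 64.1 and 56.4 CPM in controls and 47.0, 54.6 and 41.3 CPM in SMA, with all SMA libraries lower, as for 7.18% of all genes. Its log2 fold change was -0.28 (SE 0.13, edgeR adjusted p = 0.902). Sparc, at 0.00 (SE 0.09), Cav1, at 0.23 (SE 0.26), and Ocln, at 0.54 (SE 0.32), did not share that sign. The median of the 13 genes was 0.00 in SMA brain and -0.02 in SMA spinal cord. Some of the 13, such as Wnt7b, Efnb2, Ctnnb1 and Ocln, are also made by other cells, as given above. The count and the median therefore do not stand for vessels alone.

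Markers of other cell types moved with some of these comparisons, and their part in the results was not tested. Of 11 pericyte genes, Vtn alone could be followed. It was higher in SMA brain, from 39.9 to 45.1 CPM against 30.3 to 37.0 CPM in controls. Its log2 fold change was 0.34 (SE 0.13, edgeR unadjusted p = 0.0207, adjusted p = 0.902). It was lower in brain than in spinal cord, at -2.35 (SE 0.13) in controls and -2.05 (SE 0.12) in SMA. Vtn alone does not stand for the list, and which cells its footprints came from was not tested. Of 6 meningeal genes, Col1a1, the collagen of fibroblasts, was followed. It passed the study's thresholds in brain at -0.95 (SE 0.35, adjusted p = 0.902), with 4.62 to 9.19 CPM in controls and 2.46 to 4.82 CPM in SMA, and was higher in spinal cord, at 8.18 to 53.4 CPM. It did not pass without control brain library 1, at -0.54, or without SMA brain library 1 or 3, at -0.79 and -0.80. Of 11 red blood cell genes, Epor and Slc4a1 were followed, and their sum was 1.23 to 2.81 CPM in control and 3.30 to 10.9 CPM in SMA spinal cord, with Slc4a1 past the thresholds at 2.08 (SE 0.57, adjusted p = 0.684) and Epor at -0.77 (SE 0.92), on 1 to 14 counts per library. Slc4a1 was 10.7 CPM in SMA spinal cord library 1, against 2.72 and 3.60 CPM in the other SMA libraries, and still passed without it, at 1.21 (adjusted p = 0.420). In brain their sum was 1.46 to 2.52 CPM in controls and 1.95 to 4.37 CPM in SMA. Of 5 liver and yolk sac genes, Apob was followed, and it ranged in brain from 0.488 to 2.30 CPM for controls and 0.558 to 33.6 CPM for SMA, and in spinal cord from 2.34 to 294 CPM for controls and 2.72 to 911 CPM for SMA. It passed the thresholds in SMA brain at 2.65 (SE 1.08, adjusted p = 0.902), and not without SMA brain library 1, at -1.16, control brain library 1, at 3.03, or control brain library 3, at 2.34. None of the 7 microglial genes could be followed.

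Of 6 genes of neural progenitors and neurons, 3 were followed. Nes, which encodes nestin, the intermediate filament of neural progenitors, was lower in SMA brain than in control brain. It was 349, 377 and 390 CPM in control and 330, 297 and 248 CPM in SMA brain, without overlap, at -0.33 (SE 0.11, edgeR adjusted p = 0.902). It was also lower in SMA spinal cord, at 111 to 139 CPM against 150 to 168 CPM in controls and -0.41 (SE 0.11, adjusted p = 0.684), where the endothelial genes overlapped. All SMA libraries lay below all controls for 7.18% of all genes in brain and 6.29% in spinal cord. In both tissues the unadjusted p of Nes was below 0.05 but its fold change was under the study's threshold, which it passed in spinal cord without SMA library 3, at -0.51. The neuronal genes Elavl3, an RNA-binding protein gene, and Map2, of the dendritic cytoskeleton, had 0.17 (SE 0.09) and 0.09 (SE 0.10) in brain and 0.17 (SE 0.09) and 0.12 (SE 0.09) in spinal cord, and did not pass. Between tissues, Nes was higher in brain, at 1.21 (SE 0.09) in controls and 1.26 (SE 0.13) in SMA, as was Elavl3, at 0.35 (SE 0.10) and 0.32 (SE 0.08), while Map2 did not pass, at 0.21 (SE 0.12) and 0.16 (SE 0.07). The 3 genes summed in brain to 3419 to 4268 CPM for controls and 3741 to 4230 CPM for SMA, and in spinal cord to 2761 to 3313 CPM and 3046 to 3561 CPM.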

How the data were processed

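Ribosome profiling libraries of embryonic day 14.5 brain and spinal cord were analysed from 1 table of raw footprint counts per gene, deposited by the authors after a filter on low values. Per the labels and methods, the authors trimmed adapters with cutadapt 4.1, removed ribosomal and transfer RNA reads and aligned to GRCm38.p6 with STAR 2.5.3a. A read could align to several places, so reads of near-identical genes may be shared. The counting tool, and whether counts precede the removal of reads with the same position, are not given in the sources used here. The deposited length column is in bases and was used for levels per kilobase.

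All counts were taken as deposited. Normalized CPM used TMM factors of all 12 libraries. Tests used edgeR 4.0.16 (R 4.3.3, limma 3.58.1; estimateDisp, glmQLFit and glmQLFTest) over all 10481 genes, 6 libraries per comparison and 12 for the interaction, with Benjamini-Hochberg adjustment. The standard error is the log2 fold change over the root of the F statistic, and 95% intervals use the t distribution. This was tested on simulated data. Of all genes, 22 had a mean under 0.05 CPM. With 3 against 3 libraries an exact permutation test cannot go below p = 0.1 and was not used. Alternatives were DESeq2 1.42.0, other scalings, filterByExpr, robust estimation, a replicate block, a trend on counts per base, 1 fit over 12 libraries, other thresholds and each library left out.

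Whether replicate numbers pair libraries was checked from their deviations from group means. In SMA brain against SMA spinal cord same-numbered libraries correlated at 0.114 to 0.345, and those with different numbers at -0.281 to 0.204. The block is given beside that result, although the labels do not state a pairing. In the other comparisons at least 1 same-numbered correlation was below 0.1. Libraries of a group differed by more than sampling noise, with a chi-square of 2.05 to 6.57 per gene over 12 pairs. Intervals reflect the spread between libraries, and the labels do not say more than that these are biological triplicates.

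The genes and lists were chosen with earlier results of these data known. All 10 listed genes are named. Genes of the other lists are named where they passed a call rule or their list had 5 or fewer genes with a name. Of the 5 genes most like the members, by the correlation given in the text, 2 are given by their identifiers, since none has a name in the tables used here. Leaving out each library was also done for the other lists, chosen after seeing the data. Names of other genes come from identifier and name pairs of the study's supplementary tables, and positions from RefSeq (GRCm38.p6), where all 5 genes matched by symbol. An item of the regional marker list is not reported here.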

Additional observations from a re-analysis of the deposited data

How the results depend on the processing

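Of the 5 endothelial genes, the number past the study's thresholds in SMA brain was 0, and it became 1 (Egfl7) with a fold change threshold of 0.3 on the log2 scale or with none, and ranged from 0 to 1 when each library was left out. In SMA spinal cord and in control brain against spinal cord the number was 0 under every alternative run. In SMA brain against SMA spinal cord it was 1 (Esam) with the replicate block, 1 (Esam) with 1 fit over all 12 libraries, and 0 to 1 with each library left out. For the interaction it ranged from 0 to 1 with each library left out. The replicate block, which pairs libraries by number, changed no other call of the 5 genes. For SMA against control a pairing by number was not established, since in each tissue at least 1 same-numbered correlation was below 0.1. There the block gave 175 genes past the thresholds in brain and 207 in spinal cord, against 160 and 103 without it.

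Signs that turned all belonged to values near 0. Cldn5 in SMA spinal cord was -0.0052 with library size alone, and -0.088 to 0.11 with each library left out. Cdh5 in SMA spinal cord was 0.017 once the trend on counts per base was removed. With each library left out, Slc2a1 in SMA spinal cord ranged from -0.042 to 0.0065, Esam there from -0.12 to 0.036, Cldn5 in control brain against spinal cord from -0.19 to 0.0078, and Cldn5 in the interaction from -0.20 to 0.0050. Of the fold changes of single genes under all alternatives, 359 kept their direction and their side of the threshold, 9 kept their direction and passed the threshold, and 7 changed sign. The cause of these changes was not tested. The precision is limited by 55 to 355 counts per library for the genes other than Slc2a1, and by 3 libraries per group.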

Other observations

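A fit with 1 effect of tissue and 1 of genotype over the 12 libraries, added after the values were seen, uses 6 libraries on each side. The labels do not say whether brain and spinal cord libraries came from the same embryos, and the fit has no term for the embryo. The 6 libraries of a genotype may therefore not be independent. In this fit Esam was lower in brain than in spinal cord, with a log2 fold change of -0.39 (edgeR adjusted p = 0.0297), and Egfl7 had -0.38 (adjusted p = 0.0330). Of all genes, 59.4% passed an adjusted p below 0.05. Cdh5 had -0.16 (adjusted p = 0.136), Cldn5 -0.12 (adjusted p = 0.249) and Slc2a1 -0.08 (adjusted p = 0.154). Once the trend on counts per base was removed, the calls changed: Esam and Egfl7 no longer passed (adjusted p = 0.102 and 0.0698), and Slc2a1 did, at -0.15 (adjusted p = 0.0182), beside 58.9% of all genes. The effect of genotype over both tissues passed an adjusted p below 0.05 for 0 genes by edgeR. At an unadjusted p below 0.05 it had 12.1% of all genes and 1 of the 5 endothelial genes, Egfl7, at -0.32 (adjusted p = 0.395 by edgeR), which was -0.25 and above that unadjusted threshold once the trend was removed. DESeq2 was not run for this fit.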
